A study of Mus musculus with 2 samples.

Results

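Prg4, Htra4, Clic5, Tspan15, Hbegf, Cd55 and Rab37 are genes known for the lining layer of the synovium, the thin sheet of cells that faces the joint cavity. These 7 were chosen by symbol, out of 32285 genes listed in the count matrices, and all 7 passed a minimum of 10 UMIs over both libraries in each fibroblast gate compared. The libraries are single-cell RNA-seq of knee synovium from wild-type mice, counted in unique molecular identifiers (UMIs) with a kit that reads the 3' end of transcripts. One library came from mice labelled MMS D14 and one from control mice, whose label gives no such number. The labels do not spell out MMS, and give no strain, sex or age. Each library pooled 20 knees, so there is 1 sample per group, no replicate error and no test. Every difference is between these libraries, and each interval in brackets is a 95% interval that covers counting error only.

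Lining fibroblasts are mesenchymal cells that sit beside resident macrophages at the joint surface and release lubricin and hyaluronan into the synovial fluid. Lubricin, the product of Prg4, is a large mucin-like glycoprotein that coats cartilage and lets the surfaces slide. Htra4 encodes a secreted serine protease of the HtrA family. Clic5 encodes a chloride intracellular channel protein that associates with the actin cortex, and Tspan15 a tetraspanin that partners the sheddase Adam10. Hbegf encodes a membrane-anchored ligand of the epidermal growth factor receptor that shedding releases. Cd55 encodes decay-accelerating factor, an anchored inhibitor of complement that also binds Adgre5 (CD97) on leukocytes. Rab37 encodes a small GTPase of secretory granules. Beneath the lining, sublining fibroblasts carry Thy1, Cd34, Dpp4 or Pi16.

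The MMS library held 85597195 UMIs over 5286 barcodes, against 84900876 UMIs over 8810 barcodes in the control library. After filtering, 3765 MMS cells and 6891 control cells were kept, with medians of 17444 and 10990 UMIs per cell, and 4 kept barcodes occurred in both libraries. The labels name goblet cells as the cell type, but 0 of 3765 MMS cells and 0 of 6891 control cells had UMIs of 2 or more of 8 goblet markers, which allows shares of up to 0.0797% and 0.0435%. Cells were sorted into gates by marker genes, none of which is among the 7 genes described. A marker counted as positive at 1 UMI per 10000 UMIs of the cell, and a gate needed 3 of 8 markers. Fibroblast-gate cells positive for Col22a1, a collagen of tissue junctions, and for none of Thy1, Cd34, Dpp4 and Pi16 formed the lining gate. Cells positive for any of those 4 genes formed the sublining gate, and cells with neither are called other fibroblasts. Cells with at least 2 of 7 tendon or cartilage markers were set apart. All 11 immediate early and stress genes examined had UMIs in lining-gate cells. Their summed level there was 4330 UMIs per 1000000 UMIs of the gate (CPM) in MMS cells and 6103 CPM in control cells, and 5619 CPM in MMS against 16003 CPM in control cells of the whole fibroblast gate. In the sublining gate it was 7612 CPM in MMS and 17343 CPM in control, and in other fibroblasts 7054 CPM and 14871 CPM. These genes are known to respond to stress and tissue handling. Cells were matched on them in the whole fibroblast gate and in the lining gate only, and their part in the other results was not tested.

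Clic5 and Tspan15 were lower together in MMS lining-gate cells, as described below, so the 250 bases before their RefSeq start sites (GRCm38.p6) are given. The 5' to 3' sequences are those of the gene's own strand, chr17:44188322-44188571 (plus) for Clic5 and chr10:62231219-62231468 (minus) for Tspan15. Capitals mark matches to the motifs searched.
Clic5: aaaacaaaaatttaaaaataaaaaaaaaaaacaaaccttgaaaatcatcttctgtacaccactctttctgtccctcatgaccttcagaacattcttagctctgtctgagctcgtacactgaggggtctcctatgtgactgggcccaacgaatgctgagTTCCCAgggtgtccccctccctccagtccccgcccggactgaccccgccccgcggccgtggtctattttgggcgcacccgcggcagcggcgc
Tspan15: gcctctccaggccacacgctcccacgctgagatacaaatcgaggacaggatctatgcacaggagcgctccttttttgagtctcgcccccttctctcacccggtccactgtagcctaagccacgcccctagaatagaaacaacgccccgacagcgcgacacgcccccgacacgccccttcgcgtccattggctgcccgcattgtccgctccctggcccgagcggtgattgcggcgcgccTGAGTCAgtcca
A window of 300 bases, reaching 50 bases past the start site, was searched on both strands for 5 motifs. The AP-1 motif TGANTCA is found in 7.81% of 32851 RefSeq windows, the CRE motif TGACGTCA in 1.79%, the TEAD motif GGAATG in 14.7%, the RBPJ motif TGGGAA in 25.6% and the FOXO motif GTAAACA in 3.65%. Tspan15 held an AP-1 match, TGAGTCA, starting 12 bases before its start site. Clic5 held an RBPJ match on the reverse strand, TTCCCA, starting 92 bases before its start site. Cd55, the third of the 7 genes with an entry in the RefSeq promoter table, held none of the 5 motifs. The printed windows shared no motif. These matches describe letters only.

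On GRCm38 (GENCODE M21), Prg4 lies on the minus strand at chr1:150449412-150466165, overlapping Tpr on the other strand by 524 bases. Htra4 lies on the minus strand at chr8:25024929-25038962 and overlaps Gm16933 on the plus strand. Clic5 is on the plus strand at chr17:44188584-44280172, Tspan15 on the minus strand at chr10:62185396-62231251, and Hbegf on the minus strand at chr18:36504927-36515805. Cd55 is on the minus strand at chr1:130439027-130462744, next to its close paralog Cd55b at chr1:130388537-130423009. Cd55b had 21 UMIs in kept MMS cells and 58 in kept control cells, against 9690 and 8959 for Cd55. Whether reads were split or lost between the pair was not tested. Rab37 is on the plus strand at chr11:115091431-115162236 and has Cd300lf on its opposite strand. All are annotated as protein coding.

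Among gates with at least 50 cells, all 7 genes stood highest in lining-gate cells in both libraries, as the name of the group says. For Cd55 this holds for the level per UMI only, since most of its control UMIs lay in the sublining gate. Prg4 reached 111773 CPM (111623 to 111923) in MMS lining-gate cells and 94758 CPM (94478 to 95039) in control lining-gate cells. In sublining-gate cells it stood at 6922 CPM in MMS and 1140 CPM in control. The lining level was thus 16.1-fold the sublining level in MMS and 83.1-fold in control. Htra4 was 12.4-fold higher in the lining than in the sublining gate in MMS and 59.6-fold in control, Clic5 11.7-fold and 94.3-fold, Tspan15 12.8-fold and 83.4-fold. Hbegf was 7.38-fold higher in MMS and 72.5-fold in control, and Rab37 4.87-fold and 54.5-fold. Cd55 was the exception, at 2.27-fold in MMS and 2.28-fold in control. At least 2-fold higher levels in the lining gate were seen for 6.64% of 14482 genes in MMS and 9.44% of 14276 genes in control. All 7 genes here were so in both libraries, which is no test, since they were picked as lining genes. The 7 genes and the gates were also chosen with earlier results of these data known.

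The drop from the lining to the sublining gate was shallower in MMS for each gene but Cd55, and the few richest cells carried much of the sublining signal. Col22a1, which defines the lining gate, had a shallower drop too, 12.3-fold in MMS and 113-fold in control. The share of all genes with a shallower drop was not computed. The 5 sublining-gate cells with the most Prg4 UMIs held 23.4% of them in MMS and 31.2% in control. For Clic5 the 5 richest cells held 55.9% of sublining UMIs in MMS and 61.8% in control. The median sublining-gate cell had 2.79 Prg4 UMIs per 10000 in MMS and 0.775 in control. For Cd55 the 5 richest sublining cells held only 13.7% of UMIs in MMS and 5.20% in control, so its sublining level was spread over many cells.

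**Figure D1:**
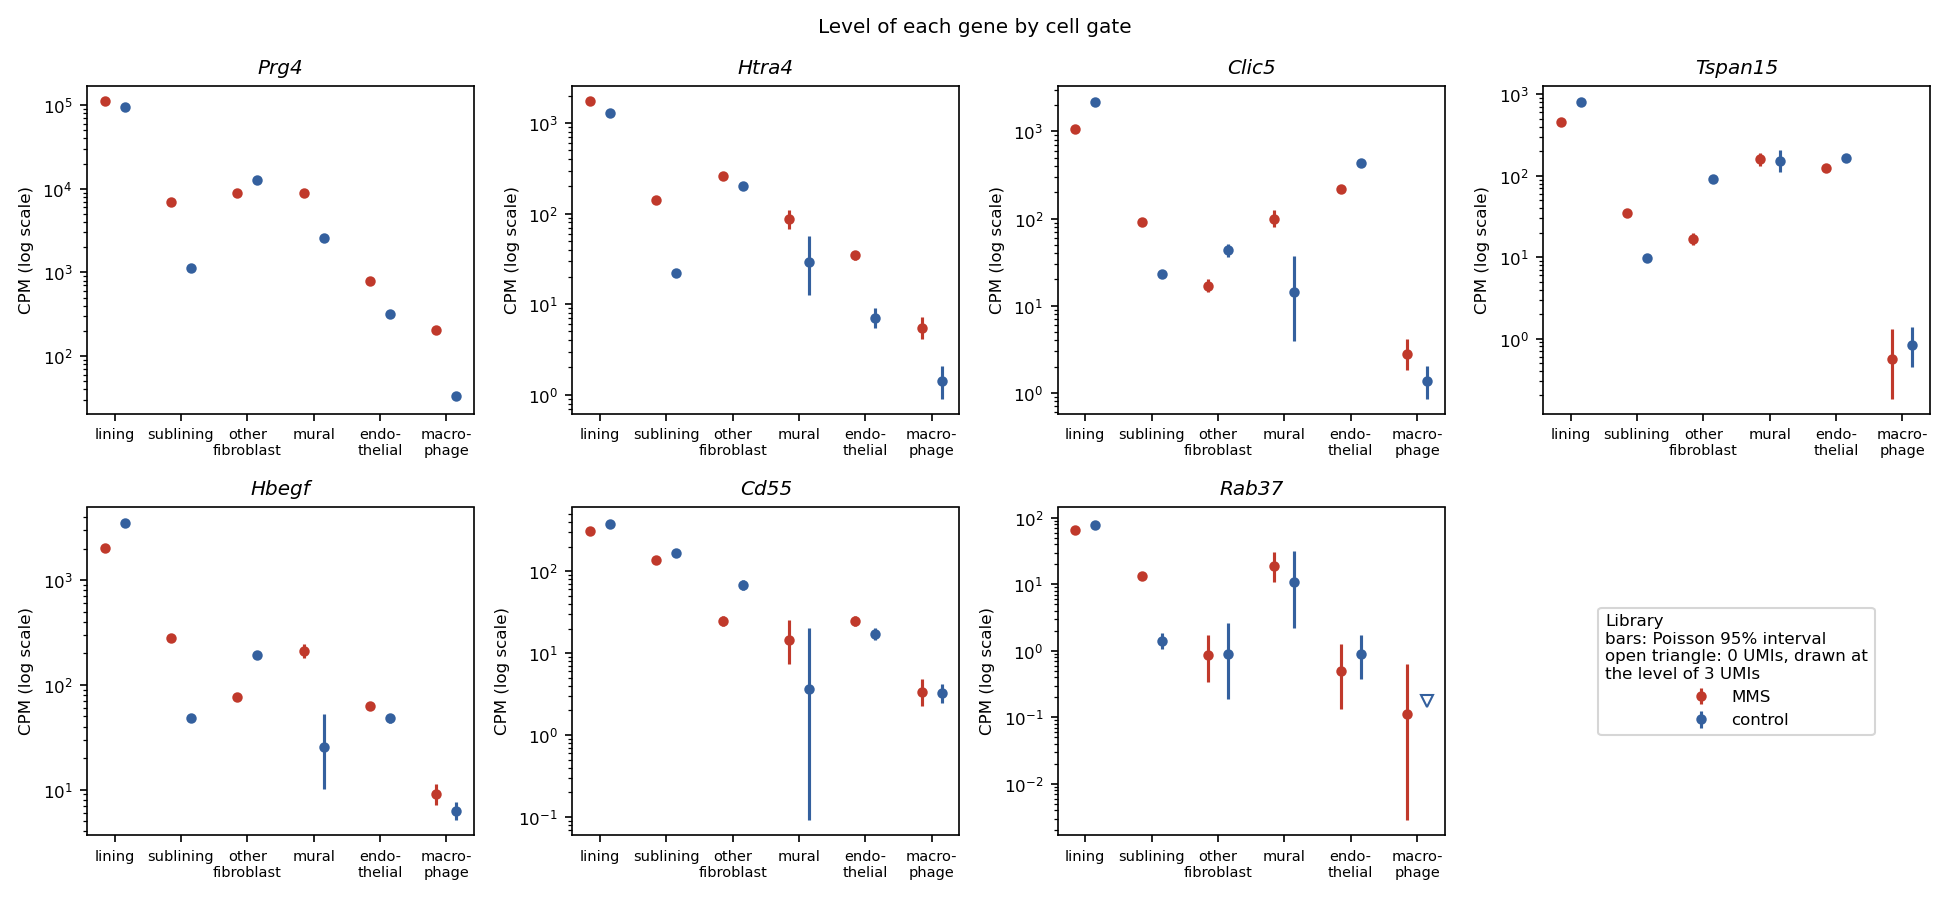
Level of each gene by cell gate, in CPM on a log scale, MMS (red) left of control (blue); bars are Poisson 95% intervals and the open triangle is a gate with 0 UMIs. All 7 genes stand highest in the lining gate, and Clic5 and Tspan15 have a second level in endothelial cells.

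Where the UMIs lie in the whole library follows the same order. Lining-gate cells held 83.3% of the Prg4 UMIs of all kept cells in MMS and 72.2% in control. Within the fibroblast gate, the lining gate held 91.4% of Prg4 UMIs in MMS and 83.6% in control. For Cd55 it held 70.0% in MMS but 20.7% in control, where most Cd55 UMIs came from the sublining gate, whose cells were far more numerous. In control synovium, then, Cd55 counted over all fibroblasts is mainly a sublining measure. Cells that no gate took held 7.97% of the Prg4 UMIs of kept MMS cells and 12.9% of those of kept control cells, and 68 such MMS cells and 29 such control cells were positive for Col22a1 without a sublining marker.

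The lining gate took 538 of 1747 fibroblast-gate cells in MMS, or 30.8% (28.6 to 33.0), against 185 of 3170 in control, or 5.84% (5.05 to 6.71). The sublining gate took 33.0% of MMS and 85.9% of control fibroblast-gate cells, other fibroblasts 21% and 6.85%, and tendon or cartilage cells 15.2% and 1.45%. Lining-gate cells were deep in both libraries, with a median of 34777 UMIs in MMS and 24237 in control. Among fibroblast-gate cells matched on UMIs, an alternative chosen after seeing the data, the difference in the lining share was 5.41 percentage points instead of 24.96. Within bins of UMIs it ranged from -6.49 to 25 points and was positive in every bin but that from 23170 UMIs. It was 25 points in the bin from 4096 UMIs, where lining cells were 25% of 28 cells in MMS and 0 of 104 in control. It was -6.49 points in the bin from 23170 UMIs, with 29.4% in MMS and 35.9% in control. It was 21.8 points in the bin from 32768 UMIs. Pooled tissue and enzymatic release of cells also enter these shares, and their part was not tested.

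Over the whole fibroblast gate, 6 of the 7 genes were higher in MMS, 5 of them at least 2-fold. Of 16433 genes in that gate, 57.2% were higher in MMS and 12.1% at least 2-fold higher, with a median log2 ratio of 0.09. Prg4 stood at 46149.7 CPM in MMS and 11055 CPM in control, a log2 ratio of 2.06 (2.06 to 2.07). Htra4 stood at 752 CPM in MMS and 160 CPM in control (log2 ratio 2.24). Rab37 had 29.6 CPM in MMS and 8.75 CPM in control (1.76), and Hbegf 888 CPM in MMS and 397 CPM in control (1.16). Tspan15 had 187 CPM in MMS and 92.8 CPM in control (1.01), and Clic5 434 CPM in MMS and 236 CPM in control (0.88). Cd55 alone was not higher, with 168 CPM in MMS and 177 CPM in control (-0.08). The share of all genes higher in MMS was not computed for matched cells, so the counts that follow have no such share beside them. Among cells matched on UMIs, 2 of the 7 genes were higher in MMS and the log2 ratio of Prg4 was 0.35. The directions of Clic5 (-0.84), Tspan15 (-0.52), Hbegf (-0.56) and Rab37 (-0.062) turned. Matched on immediate early genes, 4 of the 7 were higher. Prg4 was at 0.93, Htra4 at 1.23, Rab37 at 0.56 and Hbegf at 0.16, while Clic5 and Tspan15 turned, both to -0.12, and Cd55 was at -0.69.

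The fibroblast gate held more lining cells in MMS, so the ratio was recomputed with the MMS levels of each part weighted by the share of UMIs that the part had in control. Prg4 then had a log2 ratio of 0.64, Htra4 0.93, Rab37 1.01 and Hbegf 0.13. Clic5 had -0.40, Tspan15 -0.31 and Cd55 -0.29. With the 4 parts weighted equally between libraries, Prg4 had 0.27 and Htra4 0.53, Rab37 0.09, and the other 4 genes lay between -0.92 for Clic5 and -0.30 for Cd55.

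Inside the lining gate the 7 genes divided: 2 were higher in MMS and 5 were lower. Of 13442 genes in that gate, 48.7% were higher and 51.3% lower, with 5.26% at least 2-fold lower and a median log2 ratio of -0.01. Only Clic5 among the 7 was at least 2-fold lower. Prg4, the lubricant itself, differed little in level, 111773 CPM in MMS and 94758 CPM in control (log2 ratio 0.24). In cells matched on UMIs its direction turned, with 82277 CPM in MMS and 92857 CPM in control (-0.17), and lower in MMS in both bins of UMIs (-0.27 and -0.15). That comparison kept 176 of 538 MMS cells and 144 of 185 control cells. Htra4 was higher, with 1746 CPM in MMS and 1307 CPM in control (0.42, 0.38 to 0.46).

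The other 5 genes were lower. Clic5 had 1063 CPM (1048 to 1077) in MMS lining-gate cells and 2193 CPM (2151 to 2237) in control lining-gate cells, a log2 ratio of -1.05 (-1.08 to -1.01). Tspan15 had 454 CPM in MMS and 806 CPM in control (-0.83, -0.88 to -0.77). Hbegf had 2049 CPM in MMS and 3517 CPM in control (-0.78, -0.81 to -0.75). All 3 stayed lower in MMS under each of the 16 alternative settings, with log2 ratios of -1.26 to -0.79 for Clic5, -1.0 to -0.66 for Tspan15 and -1.19 to -0.55 for Hbegf. Cd55 had 311 CPM in MMS and 377 CPM in control (-0.28), and Rab37 66.0 CPM in MMS and 77.2 CPM in control (-0.23, -0.40 to -0.05). Immediate early genes were lower in MMS lining-gate cells for 10 of 11 genes, against 51.3% of all genes lower in that gate. Jun had the largest drop, with 383 CPM in MMS and 780 CPM in control (-1.03). Ier3 was higher, with 139 CPM in MMS and 75.7 CPM in control (0.88). Among lining-gate cells matched on the 11 immediate early genes, Clic5 was at -0.92, Tspan15 at -0.85 and Hbegf at -0.75.

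**Figure D2:**
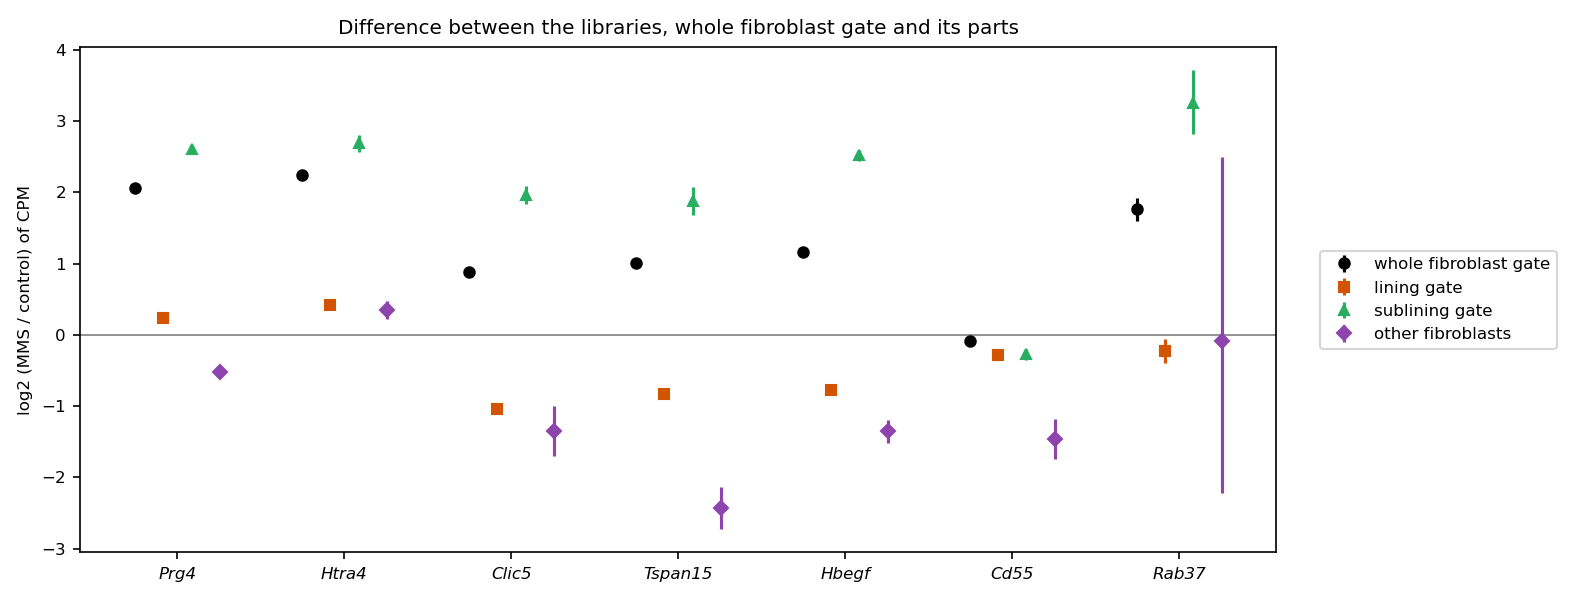
Log2 ratio of MMS over control for each gene in the whole fibroblast gate and in 3 of its parts, with 95% counting intervals; 0 is no difference. Clic5, Tspan15 and Hbegf lie above 0 in the whole gate and in sublining cells and below 0 in lining cells and other fibroblasts.

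In the sublining gate 6 of the 7 genes were at least 2-fold higher in MMS, against 11.1% of 15286 genes at least 2-fold higher there. Clic5 had 90.5 CPM in MMS and 23.3 CPM in control (log2 ratio 1.96), Tspan15 35.4 CPM and 9.67 CPM (1.87), and Hbegf 278 CPM and 48.5 CPM (2.52). Rab37 had 13.6 CPM in MMS and 1.42 CPM in control (3.26), resting on 193 and 55 UMIs. Cd55 was at -0.27. Prg4 was at 2.60 and Htra4 at 2.69, and the lining marker Col22a1 had 87.6 CPM in MMS and 6.39 CPM in control in the same gate. The 5 cells of this gate richest in Clic5 held 55.9% of its UMIs in MMS and 61.8% in control. For Tspan15 the 5 richest cells held 33.5% and 34.7%, and for Hbegf 36.0% and 47.3%. Whether the higher values come from sublining cells or from lining RNA in this gate was not tested.

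In other fibroblasts 6 of 7 genes were lower in MMS, with Tspan15 at 16.9 CPM in MMS and 91.0 CPM in control (-2.43) and Clic5 at -1.35. Rab37, one of the 6, rested on 7 UMIs in MMS and 3 in control. That share of 6 in 7 stands against 36.4% of 13148 genes lower in MMS in those cells. Prg4 there was at 8769 CPM in MMS and 12643 CPM in control (-0.53). Markers of other cells also differed in this gate. The 8 neutrophil markers summed to 438 CPM in MMS and 1.52 CPM in control, where 7 of them were at 0. The 8 adipocyte markers summed to 417 CPM in MMS and 83.1 CPM in control, where 1 was at 0. Their part in the lower values was not tested.

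Single lining-gate cells spread widely in every gene. The median lining-gate cell had 1020 Prg4 UMIs per 10000 in MMS (quartiles 619 and 1438) and 782 in control (387 and 1205). For Clic5 the median was 6.49 in MMS (quartiles 1.47 and 15.4) and 16.9 in control (6.47 and 33.7). For Hbegf it was 10.1 in MMS (1.48 and 31.5) and 28.6 in control (7.48 and 59.2), and for Tspan15 4.0 in MMS and 7.73 in control. The quartile ranges of the libraries overlapped for each of these genes. After every cell was thinned to 2000 UMIs, Clic5 was detected in 61.8% of MMS and 81.1% of control lining-gate cells, against 90.9% and 96.2% at full depth. Hbegf was detected in 66.7% and 83.2% of thinned cells, and Tspan15 in 51.5% and 75.7%. Htra4 went the other way, with 84.1% in MMS and 71.4% in control. In macrophages, as a measure of free RNA, thinned shares were 0.354% in MMS and 0.241% in control for Clic5 and 1.95% and 0.723% for Hbegf, with medians of 14773 and 12915 UMIs per cell. For Hbegf this measure is uncertain. Macrophages held 80 Hbegf UMIs in MMS and 106 in control, where the lining-gate ratio of Hbegf to Prg4 would give 33.5 and 21.3. The source of the difference was not tested. A thinned lining-gate cell held a median of 4 of the 7 genes in MMS and 5 in control, and 63.9% and 81.1% held 4 or more.

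**Figure D3:**
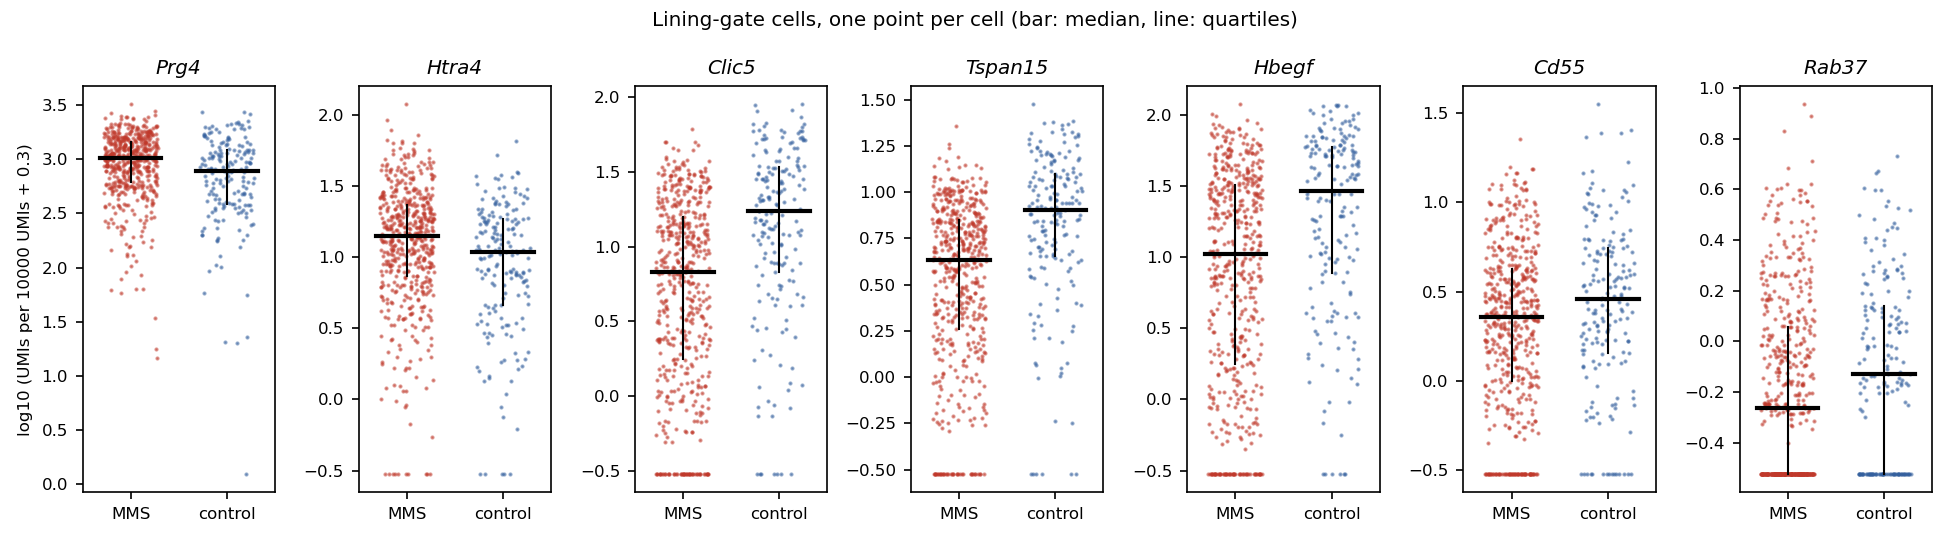
Level of each gene in single lining-gate cells, as log10 of UMIs per 10000 plus a small constant, MMS (red) and control (blue); 1 point is 1 cell, the thick bar is the median and the thin line spans the quartiles. The MMS median lies below the control median for Clic5, Tspan15, Hbegf, Cd55 and Rab37 and above it for Prg4 and Htra4.

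Grouping fibroblast-gate cells by their Prg4 level, without any use of Col22a1 or sublining markers, gave lower Clic5 and Tspan15 in MMS in all 5 bins and higher Htra4 in all 5. Hbegf was lower in 4 bins, Cd55 in 3 and Rab37 in 3. For Rab37 the interval included 0 in the bins from 30 (-2.01 to 0.46) and from 300 (-0.33 to 0.14), where it was lower. It also did in the bin below 30 (-0.52 to 2.73), where Rab37 was higher. The bins were set after seeing the data. Cells with 1000 or more Prg4 UMIs per 10000 made up 16.4% (14.7 to 18.2) of fibroblast-gate cells in MMS and 2.30% (1.81 to 2.89) in control. Cells below 30 made up 55.9% in MMS and 88.6% in control. In cells from 100 to under 300 Prg4 UMIs per 10000, Clic5 stood at 116 CPM in 98 MMS cells and 935 CPM in 89 control cells, a log2 ratio of -3.01 (-3.18 to -2.85). Tspan15 stood at 100 CPM in MMS and 485 CPM in control (-2.27), Hbegf at 476 CPM and 1499 CPM (-1.65), and Cd55 at 154 CPM and 400 CPM (-1.38). Htra4 was higher in the same cells, at 586 CPM in MMS and 479 CPM in control (0.29), and Col22a1 stood at 229 CPM in MMS and 250 CPM in control. MMS cells of that bin had a median of 27831 UMIs and control cells 18282.

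The gap narrowed towards the Prg4-richest cells. In cells with 1000 or more Prg4 UMIs per 10000, Clic5 had 1284 CPM in MMS and 1985 CPM in control (-0.63), Tspan15 492 CPM and 616 CPM (-0.33), and Hbegf 2361 CPM and 3233 CPM (-0.45). Cd55 turned higher there, with 326 CPM in MMS and 244 CPM in control (0.42), as did Rab37, with 71.7 CPM and 57.3 CPM (0.32). At the low end, cells below 30 had Cd55 at 56.5 CPM in MMS and 155 CPM in control (-1.45). In those cells Clic5 had 2.77 CPM in MMS and 4.71 CPM in control, and Hbegf 49.4 CPM and 24.2 CPM.

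**Figure D4:**
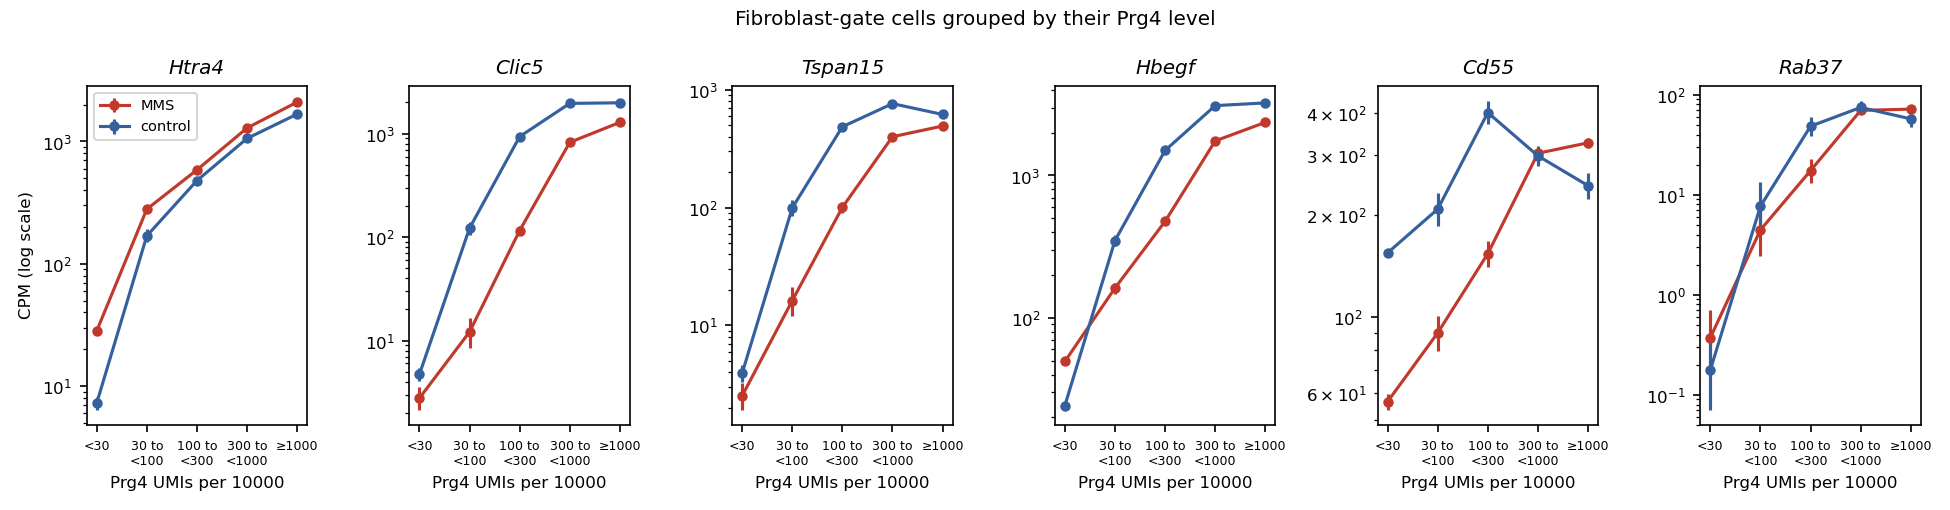
Level of 6 genes in fibroblast-gate cells grouped by their Prg4 UMIs per 10000, in CPM on a log scale, with Poisson 95% intervals; MMS is red and control blue. Between 30 and 300 Clic5, Tspan15, Hbegf and Cd55 stand lower in MMS, the lines draw closer for Clic5, Tspan15 and Hbegf at 1000 or more, and Htra4 stands higher in MMS throughout.

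Detection of the genes in the same cells was described by Pearson's r of thinned log counts over fibroblast-gate cells, 1680 in MMS and 3142 in control, which share their library and its mix of cell types. Prg4 and Htra4 had r of 0.73 in MMS and 0.69 in control. Clic5 and Hbegf had 0.68 in MMS and 0.81 in control, and Clic5 and Tspan15 0.58 and 0.77. Prg4 had lower r with Cd55, 0.32 in MMS and 0.14 in control, and with Rab37, 0.26 in both.

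Clic5 and Tspan15 had a second source outside the fibroblasts. Endothelial-gate cells held 1757 Clic5 UMIs in MMS, where the lining ratio of Clic5 to Prg4 would give 60.6, and 3937 in control, where it would give 66.2. For Tspan15 the counts were 1008 UMIs against 25.9 in MMS and 1494 against 24.3 in control. The endothelial level of Clic5 was 216 CPM in MMS and 437 CPM in control (log2 ratio -1.02), and that of Tspan15 124 CPM and 166 CPM (-0.42). Tspan15 also stood in mural cells, the pericytes and smooth muscle of vessels, at 107 CPM in 62 MMS cells and 135 CPM in 45 control cells once the 5 cells richest in Prg4 were left out. Clic5 was thus lower in MMS in lining-gate and in endothelial-gate cells. Cd55 stood at 24.5 CPM in MMS and 17.2 CPM in control endothelial-gate cells, and at 3.38 CPM and 3.24 CPM in macrophages. In 256 MMS neutrophils, without the 5 cells richest in Prg4, it had 29.9 CPM.

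Prg4 in cells that are not fibroblasts, the measure of free RNA here, was higher in MMS. Without the 5 cells richest in Prg4 in each gate, Prg4 stood at 146 CPM in MMS endothelial cells and 74.3 CPM in control ones, at 137 CPM and 32.8 CPM in macrophages, at 127 CPM and 56.6 CPM in mural cells, and at 111 CPM in MMS neutrophils. Those 5 cells held 81.5% of the Prg4 UMIs of endothelial-gate cells in MMS and 76.7% in control. With them the endothelial level was 782 CPM in MMS and 318 CPM in control. Lining-gate levels were far above these values. By cell, the sublining median was 2.79 Prg4 UMIs per 10000 in MMS and 0.775 in control. The endothelial median was 1.36 in MMS and 0 in control, and the macrophage median 1.19 and 0. The part of free RNA in the sublining values was not tested. Rab37, near 0 in macrophages (1 UMI in MMS and 0 in control), had 8.63 CPM in MMS neutrophils without their 5 Prg4-richest cells.

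**Figure D5:**
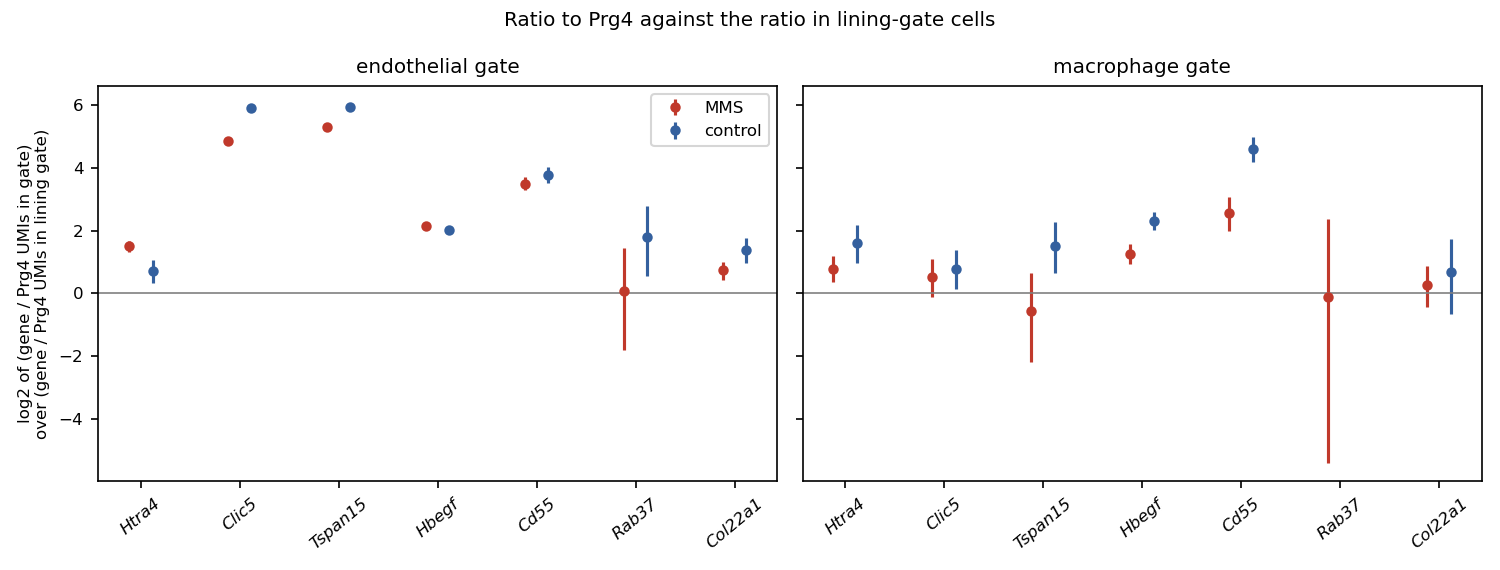
Log2 of each gene's UMIs per Prg4 UMI in endothelial and macrophage cells over the same ratio in lining-gate cells, with 95% counting intervals; MMS is red and control blue, and Rab37 in control macrophages, at 0 UMIs, has no point. At 0 a gene has the ratio to Prg4 it has in lining cells, and Clic5 and Tspan15 stand 4.86 to 5.94 above it in endothelial cells. For Cd55 the lining ratio is a poor yardstick, since sublining cells hold most of its control UMIs.

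Genes around the 7 were taken from lists chosen with earlier results known, and counted over members with at least 10 UMIs. Of 8 other lining genes, 5 were higher and 3 lower in MMS lining-gate cells, with a median log2 ratio of 0.34. That count, like those of the other lists in this gate, stands against 48.7% of all genes higher and a median of -0.01. Col22a1, which defines the gate, had 1075 CPM in MMS and 725 CPM in control. Podoplanin (Pdpn), a mucin-like surface protein of lining cells, had 145 CPM in MMS and 71.4 CPM in control (1.02). Ugdh, which makes the sugar precursor of hyaluronan, was lower, with 372 CPM in MMS and 653 CPM in control (-0.81), and the hyaluronan synthase Has1 had 631 CPM and 767 CPM (-0.28). Of 8 sublining and adventitial genes, 4 of them used in the gates, 8 were lower in MMS over the whole fibroblast gate (median -1.43), where 57.2% of all genes were higher. In the lining gate 3 were higher and 5 lower (median -0.08).

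Of 12 genes known to act on lubricin expression, 8 were higher and 4 lower in MMS lining-gate cells (median 0.17), against 48.7% of all genes higher. Creb5, a transcription factor known to drive Prg4 in articular cartilage, had 493 CPM in MMS and 725 CPM in control (-0.56). Foxo1, a forkhead factor known to support Prg4, had 226 CPM in MMS and 497 CPM in control (-1.14). Tgfb1, a growth factor known to induce Prg4, had 140 CPM in MMS and 78.9 CPM in control (0.82). Among lubricin binding and breakdown genes, 5 of 8 were measurable in the lining gate, 2 higher and 3 lower. Cd44, a receptor of hyaluronan and lubricin, had 303 CPM in MMS and 310 CPM in control (-0.03). Ctsb, a lysosomal protease, had 1535 CPM in MMS and 877 CPM in control (0.81). The neutrophil proteases Ctsg and Elane had 5 and 6 UMIs in MMS lining-gate cells and 0 in control ones. Over the whole fibroblast gate Ctsg had 1557 UMIs in MMS and 0 in control, and Elane 1405 in MMS and 4 in control. Other fibroblasts held 1550 of those Ctsg UMIs and 1396 of those Elane UMIs.

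Of 9 measurable genes of Hbegf shedding and receptors, 4 were higher and 5 lower in MMS lining-gate cells (median -0.22), near the 48.7% of all genes higher. The sheddase Adam17 had 55.5 CPM in MMS and 80.9 CPM in control (-0.54), and Adam10 103 CPM and 120 CPM (-0.23). The receptor Egfr had 215 CPM in MMS and 251 CPM in control (-0.22). The sister ligands Btc, at 13.4 CPM in MMS and 28.8 CPM in control (-1.10), and Tgfa, at 3.99 CPM and 11 CPM (-1.47), were lower with Hbegf, while Ereg had 16.4 CPM and 12.1 CPM (0.44). Of the tetraspanins that partner Adam10, 1 of 3 measurable was higher, Tspan14. None of 5 measurable Clic and ezrin, radixin and moesin genes was higher (median -0.25), with Clic1 at 327 CPM in MMS and 430 CPM in control. Htra1 and Htra3, the other secreted HtrA proteases, were higher as Htra4 was, Htra1 with 1403 CPM in MMS and 1047 CPM in control (0.42) and Htra3 with 540 CPM and 308 CPM (0.81). Of 8 genes around Cd55, 5 were higher (median 0.08), and of 6 measurable exocytosis genes around Rab37, 3 were higher (median -0.04), both near the 48.7% of all genes. Adgre5, the leukocyte partner of Cd55, stood mainly in macrophages, at 540 CPM in MMS and 760 CPM in control, against 44.1 CPM and 41.5 CPM in lining-gate cells.

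The genes with levels most like Prg4 were ranked by Pearson's r of log2 CPM over 14 gate and library levels, which share 2 libraries. They were Sema3a (0.96), Dok5 (0.95), Ccn2 (0.95), Cyp1b1 (0.94) and Chst2 (0.94). Over thinned fibroblast-gate cells, ranked by the lower of both libraries' r, they were F13a1 (0.81 in MMS and 0.67 in control), Ccn2 (0.66 and 0.74), Rgcc (0.65 and 0.64), Sparcl1 (0.70 and 0.58) and Fn1 (0.80 and 0.55). Ccn2 is the gene common to both rankings.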

How the data were processed

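The authors deposited a matrix of UMI counts per gene and barcode for each library, whole numbers that are not normalized. Per the file headers, Cell Ranger 5.0.0 wrote the matrices. The version in the submitters' processing notes is 2.0.0, with the build mm10. Cells were kept with at least 1000 UMIs, 500 genes and at most 10% mitochondrial UMIs. Scrublet in scanpy 1.11.5 (expected rate 0.06) removed 106 MMS and 184 control cells as doublets. A gate had to lead every other gate by 2 markers. UMIs were summed per gate and library and expressed per 1000000 UMIs of the gate (CPM). Ratios of MMS over control have exact conditional binomial 95% intervals, CPM Poisson intervals and shares Clopper-Pearson intervals. All cover counting error only, since each group is 1 library. A gene at 0 took 3 counts as a floor, and a ratio was then given only where it was a bound. A difference was counted over genes with at least 10 UMIs in both libraries together. Shares of cells with a UMI were taken after thinning to 2000 UMIs, which leaves out 4 MMS lining-gate cells. The genes named are the 7, members of 10 lists as examples, and the 5 genes most like Prg4 under each measure. The list examples were picked with their values in view. The 7 genes, the lists and the gates were chosen with earlier results of these data known. On simulated counts for 13442 genes of the lining gate, the intervals covered the true ratio for 96.08%. The direction was recovered for 99.5% of 199 changed genes with an interval. The simulated counts were Poisson sums without spread between cells or libraries, so they check only the calculation of the ratios and intervals. Gene coordinates come from GENCODE M21 and promoter sequences from RefSeq. Windows of 3 of the 7 genes were searched, and genes on chr18, such as Hbegf, were left out.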

Additional observations from a re-analysis of the deposited data

Results flagged for a closer look

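Clic5, Tspan15, Hbegf and Rab37 differed between the libraries in opposite directions in 2 parts of the fibroblast gate, lower in MMS lining-gate cells and higher in MMS sublining-gate cells. The difference between the parts was not tested, since each group is 1 library. The log2 ratio of MMS over control was -1.05 in the lining gate and 1.96 in the sublining gate for Clic5. It was -0.83 and 1.87 for Tspan15, -0.78 and 2.52 for Hbegf, and -0.23 and 3.26 for Rab37. The 5 richest sublining-gate cells held 55.9% of its Clic5 UMIs in MMS and 61.8% in control. Below 30 Prg4 UMIs per 10000 lay 482 of 576 MMS and 2626 of 2722 control sublining-gate cells. In all fibroblast-gate cells below 30, Clic5 (2.77 CPM in MMS and 4.71 CPM in control) and Tspan15 (2.53 and 3.92) were lower in MMS. Hbegf (49.4 and 24.2) and Rab37 (0.373 and 0.177, on 9 and 7 UMIs) were higher there.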

How the results depend on the processing

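No paired analysis was possible because each group is 1 library, and for the same reason no library could be left out. Matching cells on UMIs, or on immediate early genes, adding ungated Col22a1-positive cells and leaving out tendon or cartilage cells were chosen after seeing the data. In the fibroblast gate the log2 ratio of Prg4 was 2.07 at a UMI minimum of 2000, 2.13 at a mitochondrial limit of 5%, 2.11 with 4 markers, 2.03 with a lead of 1, 2.46 with markers positive at 2 UMIs per 10000, 2.12 without the 7 genes in the denominator, 2.47 with cells weighted equally, 2.08 after subtraction of the endothelial level, 2.31 without tendon or cartilage cells, 0.93 matched on immediate early genes and 0.35 matched on UMIs. In the lining gate it was 0.28 at the mitochondrial limit of 5%, 0.24 with doublets kept, 0.25 with a lead of 1, 0.26 at 2 UMIs per 10000, 0.21 with Col22a1 alone, 0.42 by absence of sublining markers alone, 0.26 with the other denominator or equal cell weights, 0.23 after subtraction, 0.18 matched on immediate early genes, 0.22 with ungated cells added and -0.17 matched on UMIs. Matching on UMIs left 2 genes higher in MMS in the fibroblast gate and 1 in the lining gate, with no share over all genes computed. It also turned Clic5 (-0.84), Tspan15 (-0.52), Hbegf (-0.56) and Rab37 (-0.062) lower over the fibroblast gate. Matching on immediate early genes gave -0.12 for Clic5 and -0.12 for Tspan15, and Cd55 was 0.12 without tendon or cartilage cells. Rab37 in the lining gate was 0.031 by absence of sublining markers alone. The difference in lining share was 39.1 points by absence of sublining markers alone, 30.4 without tendon or cartilage cells and 5.41 matched on UMIs. Htra4 stayed higher in both gates, and Clic5, Tspan15, Hbegf and Cd55 stayed lower in the lining gate, under every alternative run. Lining-gate cells were also matched on Prg4, after seeing the data. That gave log2 ratios of -0.03 for Cd55, 0.15 for Htra4, -1.30 for Clic5, -0.90 for Tspan15 and -0.90 for Hbegf. Cd55 and Htra4 were then each higher in MMS in 2 of 3 bins, so the sign of Cd55 differed between bins. The cause of the turns was not tested. UMI matching kept 176 MMS and 144 control lining-gate cells in 2 bins, and Prg4 was lower in MMS in both.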
